A study of Mus musculus with 2 samples.

Results

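Expression of 9 complement genes was followed across the cell types of mouse liver: the C1q chains C1qa, C1qb and C1qc, the components C4b, C3 and C6, the alternative pathway factor Cfp, and the receptors Vsig4 and C3ar1. They were taken by symbol, and 9 of 9 were listed among the 28200 genes of the 2 libraries. Both libraries were single-cell suspensions of liver from male littermates after partial inferior vena cava ligation, an operation that congests the liver by narrowing its venous outflow. The control library came from a mouse of genotype Ctgffl/fl and the knockout library from a mouse of genotype Cdh5-CreERT2; Ctgffl/fl, so both carried the floxed allele. In the knockout genotype a tamoxifen-activated Cre recombinase is expressed from the promoter of Cdh5, an endothelial cadherin gene. The sources used here give no time after surgery, tamoxifen schedule or age. The suspension had been depleted of hepatocytes, dead cells and erythrocytes. The sample titles give the genotypes the other way round, and the libraries are named here by their genotype label. Ccn2, the gene deleted by the allele (also called Ctgf), stood at 1018 CPM in endothelial cells of the control library and 4.71 CPM in those of the knockout library.

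Complement is a cascade of plasma proteins that tags particles for uptake and can form pores in membranes. C1q, assembled from its 3 chains, starts the classical pathway, and C4 and C3 are cleaved in turn to give fragments that attach to surfaces. Properdin, encoded by Cfp, stabilises the alternative pathway enzyme that amplifies C3 cleavage, and C6 belongs to the membrane attack complex. Vsig4, also called CRIg, binds C3 fragments on resident macrophages, and C3ar1 is the receptor for the small fragment C3a. Most plasma complement protein comes from hepatocytes, whereas C1q comes largely from macrophages, and Kupffer cells, macrophages that reside in the sinusoids, clear complement-tagged particles from blood.

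With 1 library per genotype there was no replicate, so no difference was tested, and animal, surgery, cell recovery and genotype cannot be told apart. The libraries held 106208933 and 129802501 counts over 10000 barcodes each, of which 2 barcodes occurred in both. After filtering, 7492 control and 8296 knockout cells were left, and 5164 and 6345 of them fell in 1 of 20 types gated on marker genes. Cells with markers of 2 lineages, 2050 and 1871, were left out of every type. These held between 43.4% and 64.3% of all counts of a member, so the levels below describe the singly gated cells. Summed over Kupffer cells, 1121 in the control and 1122 in the knockout library, 8 of 8 of their markers had counts. Each of these markers was at its highest level in Kupffer cells in both libraries. The cells were chosen by these same markers, so their high level there is partly built in and does not test identity. Single cells did not need a count of all 8. Of the Kupffer cells, 250 in the control and 40 in the knockout library had no count of the marker Timd4. For monocyte/macrophage cells only 4 of 8 markers in the control and 6 of 8 in the knockout library were highest in that gate. Levels are in CPM, the counts of a gene scaled to 1e+06 counts summed over the cells of a type. All intervals are exact, at 95%, and cover counting error only.

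The promoters of the members that marked Kupffer cells show where the start sites lie and whether they share short motifs. Sequences were taken from RefSeq on build GRCm38.p6, which is older than the build of the count tables, and 7 of the 9 members matched, C1qa and C4b not being among them. Each is the 300 bases around the gene start, 5′ to 3′ on the strand of the gene, with matches to GAGGAA, the core of the motif bound by the myeloid factor PU.1, in capitals on either strand (TTCCTC when reversed).
C1qb, chr4:136886151-136886450, minus strand: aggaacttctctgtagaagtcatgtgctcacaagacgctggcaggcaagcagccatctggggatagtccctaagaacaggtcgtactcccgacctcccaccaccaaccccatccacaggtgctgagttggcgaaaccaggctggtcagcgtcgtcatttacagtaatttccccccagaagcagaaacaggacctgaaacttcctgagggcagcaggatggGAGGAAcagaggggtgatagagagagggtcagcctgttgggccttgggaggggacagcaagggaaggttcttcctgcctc
C1qc, chr4:136892865-136893164, minus strand: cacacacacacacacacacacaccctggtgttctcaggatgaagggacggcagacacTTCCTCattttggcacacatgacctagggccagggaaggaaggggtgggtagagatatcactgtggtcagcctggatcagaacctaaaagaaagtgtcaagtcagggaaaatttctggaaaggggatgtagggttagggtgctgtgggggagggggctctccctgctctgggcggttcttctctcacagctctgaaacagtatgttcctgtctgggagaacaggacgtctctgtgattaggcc
Vsig4, chrX:96293389-96293688, minus strand: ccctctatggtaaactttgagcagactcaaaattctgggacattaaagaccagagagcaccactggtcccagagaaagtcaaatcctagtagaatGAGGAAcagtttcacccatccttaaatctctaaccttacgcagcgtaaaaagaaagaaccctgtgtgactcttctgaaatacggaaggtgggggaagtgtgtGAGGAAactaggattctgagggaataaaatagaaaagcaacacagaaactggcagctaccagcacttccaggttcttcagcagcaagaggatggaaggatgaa
C6, chr15:4726960-4727259, plus strand: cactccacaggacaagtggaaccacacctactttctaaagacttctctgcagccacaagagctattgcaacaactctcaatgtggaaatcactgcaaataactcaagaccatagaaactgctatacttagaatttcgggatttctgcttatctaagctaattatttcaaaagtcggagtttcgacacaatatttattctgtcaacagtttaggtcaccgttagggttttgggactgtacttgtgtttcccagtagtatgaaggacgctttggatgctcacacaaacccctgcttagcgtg
The core lay 30 bases before the start of C1qb, 193 before that of C1qc, and 155 and 53 before that of Vsig4. Cfp held it 6 and 22 bases after the start. C3, C3ar1 and C6 had no match in these windows. A match was present in 4 of 7 member promoters and in 28.3% of 32851 promoters of the same length. The letters TGCTGA, part of the site of the macrophage Maf factors, searched on both strands, can overlap the core by their last letters GA and were present in 4 of 7 member promoters and 19.5% of all. C1qb, C1qc and C1qa are neighbouring coding genes on chromosome 4. A match is a description of the sequence and not of binding.

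Kupffer cells held most counts of 8 of the 9 members in the gated cells. Of the C1qb counts in gated cells, 86.1% in the control and 96.2% in the knockout library were in Kupffer cells. These were 1121 of the 5164 and 1122 of the 6345 gated cells. Of the C1qb counts in all cells kept, ungated ones included, Kupffer cells held 42.3% and 41.7%, and they made up 14.96% and 13.5% of those cells. The share of gated counts was 94.4% and 97.7% for Vsig4, 90.1% and 93.9% for C6, 84.3% and 87.9% for C4b, and 86.2% and 94.8% for Cfp. C3ar1 was spread more widely in the control library, with 73.1% of its gated counts in Kupffer cells there and 93.2% in the knockout library. C3 was the exception, with 7.69% and 14.5%.

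**Figure D1:**
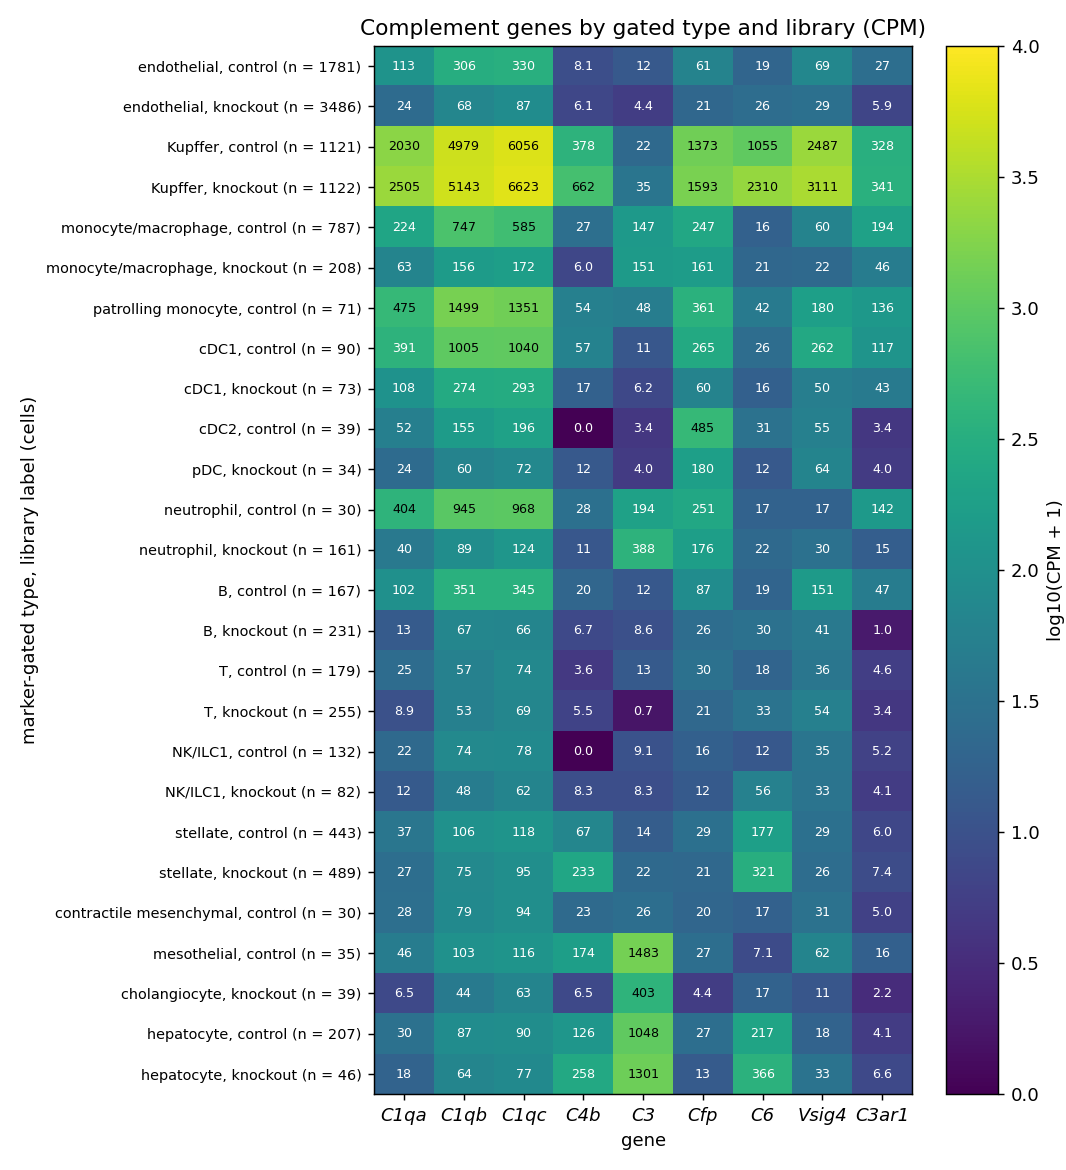
Level in CPM of each member (columns) in each gated type and library with at least 30 cells (rows, with the number of cells), coloured by log10(CPM + 1). The Kupffer rows stand out for every member except C3, which is high in mesothelial cells, hepatocytes, cholangiocytes and neutrophils.

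C1q chains, which recognise antibody complexes and dying cells, were at 2030 CPM [2006 to 2054] for C1qa, 4979 [4942 to 5017] for C1qb and 6056 [6015 to 6097] for C1qc in control Kupffer cells. In knockout Kupffer cells they were at 2505, 5143 and 6623 CPM. C1qb in the next type of the control library, patrolling monocytes (71 cells), was at 1499 CPM, 3.32-fold below Kupffer cells. In the knockout library the next type was type 1 conventional dendritic cells (cDC1) at 274 CPM, 18.7-fold below. A few cells carried much of these secondary levels: the 5 highest cells held 49.4% of the C1qb counts of patrolling monocytes and 84.1% of those of knockout cDC1. T cells, which should lack C1q, had C1qb at 56.6 and 53.5 CPM, or 1.14% and 1.04% of the Kupffer level. The Kupffer markers themselves stood in T cells at a median of 1.14% and 0.70% of their Kupffer level. B cells, also taken as background, had C1qb at 351 and 66.5 CPM, with 77.7% of the control counts in 5 cells. T cells are the background given for the other types below, and for C1qb they were the lower of these 2 types. With each Kupffer cell thinned to 4000 counts, 99.0% of 1094 control and 99.7% of 1086 knockout cells had all 3 chains. The number of C1qa counts per C1qb count, which is not corrected for transcript length, was 0.408 [0.402 to 0.413] in control Kupffer cells and 0.487 [0.481 to 0.493] in knockout ones. In monocyte/macrophage cells it was lower in the control library, at 0.2999 [0.281 to 0.321], but 0.406 [0.339 to 0.484] in the knockout library. In endothelial cells it was 0.369 and 0.360.

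C4b, whose product is cleaved by the C1 complex, was at 378 CPM [368 to 389] in control and 662 [650 to 674] in knockout Kupffer cells. It was next highest in mesothelial cells (174 CPM in 35 control cells) and hepatocytes (126 and 258 CPM), followed by stellate cells, the vitamin A storing pericytes of the sinusoid, at 67.3 and 233 CPM. The intervals of hepatocytes and stellate cells overlapped in the knockout library. C4b has a near-identical copy, C4a, listed at 2.22 and 4.30 CPM in Kupffer cells, and no source used here says how reads that fit both were counted.

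C6, a pore component best known as a liver secretory product, had its highest level in Kupffer cells, at 1055 CPM [1038 to 1072] in the control and 2310 [2288 to 2333] in the knockout library. Hepatocytes followed at 217 and 366 CPM and stellate cells at 177 and 321 CPM, with intervals that overlapped in the knockout library. The stellate levels were 16.8% and 13.9% of the Kupffer levels. None of the Kupffer markers compared exceeded 1.19% and 0.96% of its Kupffer level in stellate cells. The gate held these markers down there, whereas C6 was not used in it, so the shares cannot be compared directly. The source of the stellate C6 counts was not tested. In T cells C6 was at 18.2 and 32.9 CPM.

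Cfp was at 1373 CPM [1354 to 1393] in control and 1593 [1574 to 1611] in knockout Kupffer cells. It was also present in other myeloid cells: type 2 conventional dendritic cells (cDC2, 39 control cells) had 485 CPM, patrolling monocytes 361, monocyte/macrophage cells 247 and 161, neutrophils 251 and 176, cDC1 265 and 60.3, and plasmacytoid dendritic cells (pDC, 34 knockout cells) 180. The knockout cDC1 level was 3.78% of the Kupffer level, within the range of the Kupffer markers compared in those cells, which reached 3.87%. In control cDC1, neutrophils and patrolling monocytes Cfp stood at 19.3%, 18.2% and 26.3% of the Kupffer level. C1qb was near this, at 20.2%, 19.0% and 30.1%, and the Kupffer markers compared reached 9.68%, 6.60% and 7.61%. Whether these Cfp counts came from RNA of Kupffer cells was not tested. After thinning, 73.7% of cDC2 and 48.5% of pDC had a Cfp count, against 11.3% of control and 7.98% of knockout T cells. Median depths were 6630 counts in cDC2, 7459 in pDC, and 5155 and 4861 in T cells.

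Vsig4 was at 2487 CPM [2461 to 2513] in control and 3111 [3085 to 3137] in knockout Kupffer cells. The next type was 9.48-fold lower in the control library (cDC1, 262 CPM) and 48.7-fold lower in the knockout library (pDC, 63.9 CPM, with an interval that overlapped that of T cells at 54.2 CPM). In control cDC1 the 5 highest cells held 79.0% of the counts. C3ar1 was at 328 CPM [319 to 338] and 341 [332 to 349] in Kupffer cells. Control monocyte/macrophage cells were at 194 CPM [182 to 206], 1.69-fold below Kupffer cells, and 26.6% of them had a count after thinning, against 2.00% of control T cells.

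Kupffer cells were not alike in these genes. In the control library C6 was undetected in a large group of cells: 76.5% of thinned Kupffer cells had a C6 count, with a median of 4 counts and a lower quartile of 1. In the knockout library 97.4% had one, with a median of 9. In T cells thinned alike, the share was 5.33% and 8.51%, at median depths before thinning of 5155 and 4861 counts against 11408 and 15969 in Kupffer cells. Vsig4 had a count in 89.6% of control and 98.7% of knockout cells, and C4b in 62.7% and 85.1%. In T cells these shares were 10.7% and 10.1% for Vsig4 and 1.33% and 1.60% for C4b. C1qb had a median of 20 and 21 counts and no such group near 0. Within control cells, C6 and Vsig4 had a Spearman rho of 0.53, and within knockout cells 0.19. C1qa and C1qc had 0.48 and 0.27, and C6 and C3ar1 -0.10 and -0.04. These are descriptions over cells of 1 library each.

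**Figure D2:**
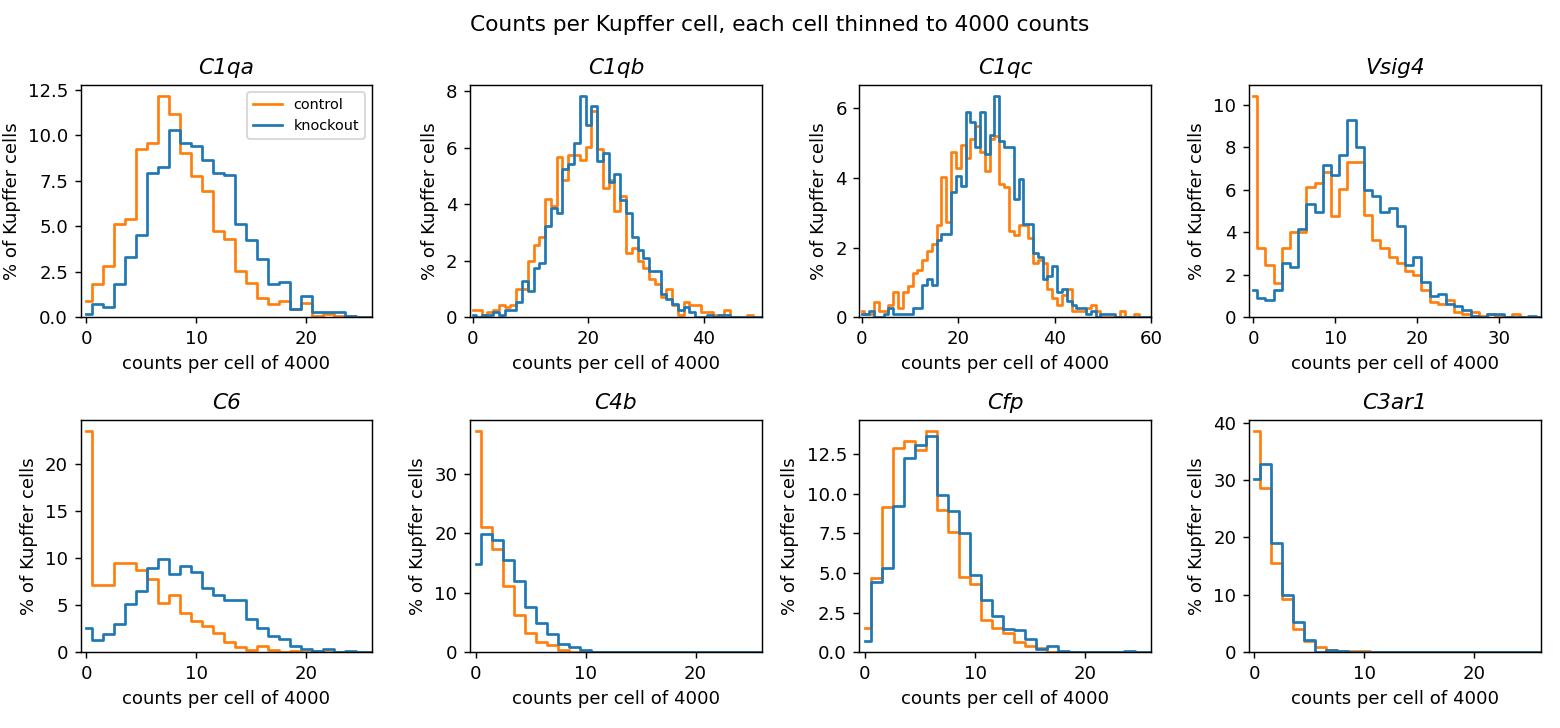
Share of Kupffer cells (y axis, percent) with each number of counts (x axis) after thinning to 4000 counts per cell, for 8 members, with the control library in orange and the knockout library in blue. C6 and Vsig4 have a peak at 0 in the control library that is small in the knockout library, whereas the C1qb curves lie on each other.

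Timd4 encodes a receptor of long-resident Kupffer cells. In the control library 871 Kupffer cells had a Timd4 count and 250 had none, and in the knockout library the numbers were 1082 and 40. Cells with a Timd4 count had 7.12-fold more C6 in the control library (1260 against 177 CPM) and 5.27-fold more in the knockout library (2355 against 447 CPM). C4b was 3.71-fold and 2.12-fold higher in cells with a Timd4 count, and Vsig4 2.34-fold and 2.16-fold. C1qb was 1.12-fold and 1.23-fold higher. C3ar1 went the other way, at 314 CPM with and 387 without a Timd4 count in the control library, while in the knockout library the interval of its log2 ratio, -0.37 to 0.10, spanned 0. C3 was at 21.1 CPM with and 28.0 without a Timd4 count in the control library (log2 ratio -0.41 [-0.79 to -0.01]) and at 35.2 and 16.9 in the knockout library (1.06 [0.01 to 2.38]). Cells with a Timd4 count were also the deeper ones. Their median counts were 12285 against 9517 in the control library and 16152.5 against 9679 in the knockout library. Timd4 was 1 of the 8 markers of the gate.

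**Figure D3:**
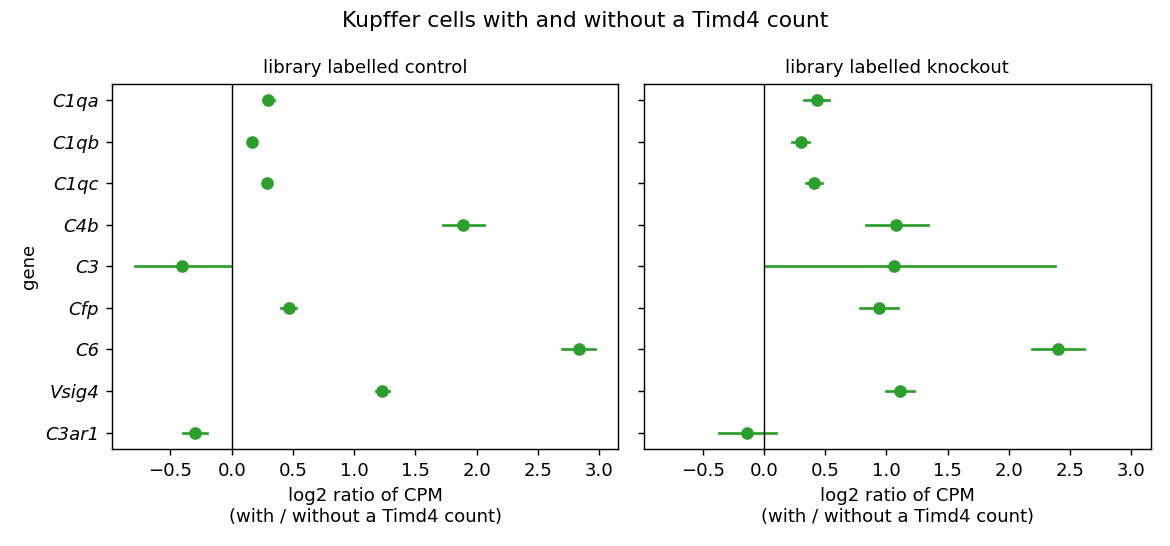
Log2 ratio (x axis) of the level of each member (y axis) in Kupffer cells with a Timd4 count over those without, in each library, with lines for the exact 95% counting interval. C6, C4b and Vsig4 have the 3 largest ratios in both libraries, and the C3 line of the knockout library is wide, with 7 C3 counts in the cells without Timd4.

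C3, the component on which all pathways converge, had another distribution. It was at 1483 CPM [1384 to 1587] in control mesothelial cells, the lining cells of the liver surface, and all 35 of these cells had a count. Hepatocytes were at 1048 CPM [1000 to 1097] and 1301 [1212 to 1395], cholangiocytes (39 knockout cells) at 403, neutrophils at 194 and 388, and monocyte/macrophage cells at 147 and 151 CPM. Kupffer cells were at 22.4 and 34.8 CPM. The knockout library had only 12 mesothelial cells, and these held 1589 C3 counts, 37.0% of those in its gated cells. Hepatocyte RNA is common in liver suspensions, so C3 was set beside Alb, the albumin transcript. Hepatocytes had 25.8 C3 counts per 1000 Alb counts [24.6 to 27.0] in the control and 35.2 [32.8 to 37.8] in the knockout library. Control T cells had 35.2 [19.1 to 59.7] and knockout endothelial cells 55.3 [45.8 to 66.2]. Knockout cholangiocytes had 64.9 [55.6 to 75.3], with 49.2% of their C3 counts in 5 cells. The ratio was 10692 in mesothelial cells, 944 and 5712 in neutrophils, 571 and 4852 in monocyte/macrophage cells, and 86.5 and 534 in Kupffer cells. In B cells, T cells and cDC1 of the control library the interval included the hepatocyte ratio. In the knockout library B cells had 114 [50.2 to 227] and stellate cells 188 [150 to 233], so a ratio above that of hepatocytes also occurred in a type taken as background. After thinning, 69.7% of knockout neutrophils and 41.4% of control monocyte/macrophage cells had a C3 count, against 0.53% and 4.67% of T cells of the same libraries.

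**Figure D4:**
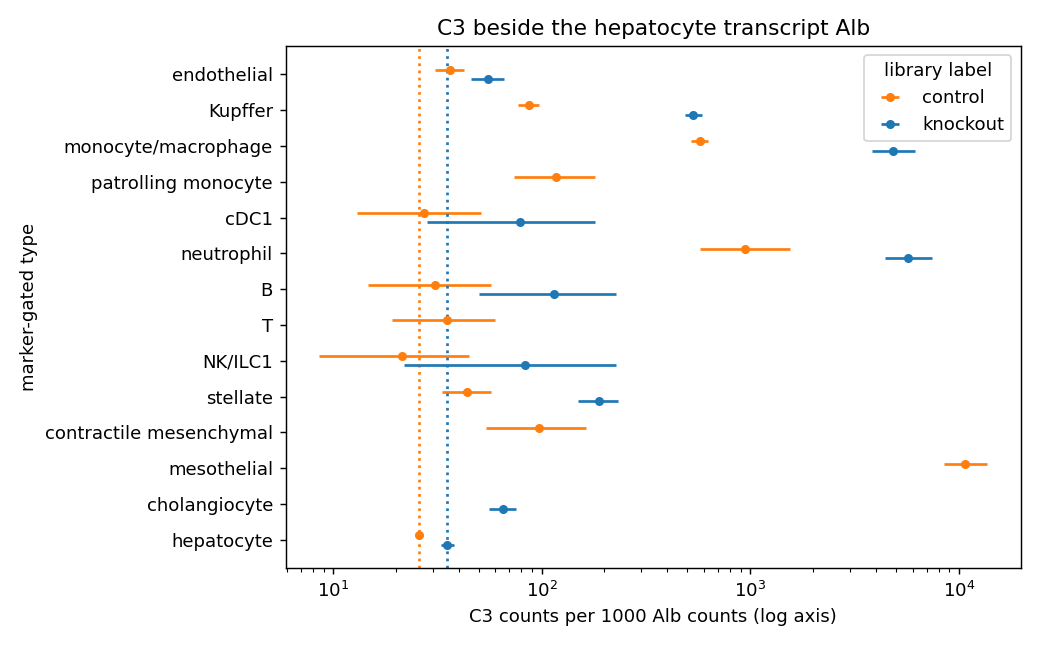
C3 counts per 1000 Alb counts (log axis) in each gated type with at least 4 C3 counts, by library, with exact 95% counting intervals and dotted lines at the hepatocyte value of each library. Mesothelial cells, neutrophils and monocyte/macrophage cells lie far to the right of the lines.

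Between the libraries, the members of Kupffer cells divided into those that moved little and those that were higher in the knockout library. A gene counted as higher or lower where its level differed at least 1.5-fold, which is a rule of size and not a test. In Kupffer cells 3 of 9 members were higher in the knockout library, against 4.57% of 8701 measured genes, and 0 of 9 were lower, against 7.5%. These were C6 (2.19-fold, log2 ratio 1.13 [1.10 to 1.16]), C4b (1.75-fold, 0.81 [0.76 to 0.85]) and C3 (1.55-fold, 0.64 [0.44 to 0.84]). The C1q chains differed by log2 ratios of 0.30, 0.05 and 0.13, Cfp by 0.21, Vsig4 by 0.32 and C3ar1 by 0.05. The median of the 9 was 0.30, beside 0.00 over all measured genes. Other features of the gate moved with these differences: the scar-associated macrophage genes Trem2, Gpnmb and Cd9 summed to 482 CPM in the control and 70.1 in the knockout library, with all 3 detected in both, and the cycling genes Mki67 and Top2a to 214 and 28.3 CPM. In Kupffer cells without a count of any of these 5 genes, 139 and 526 cells, C6 had a log2 ratio of 0.76, C4b of 0.79 and C3 of 1.34. Among cells with a Timd4 count the ratios were 0.90, 0.61 and 0.74. Among cells without one they were 1.34, 1.42 and -0.73, the last resting on 7 counts in the knockout library.

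**Figure D5:**
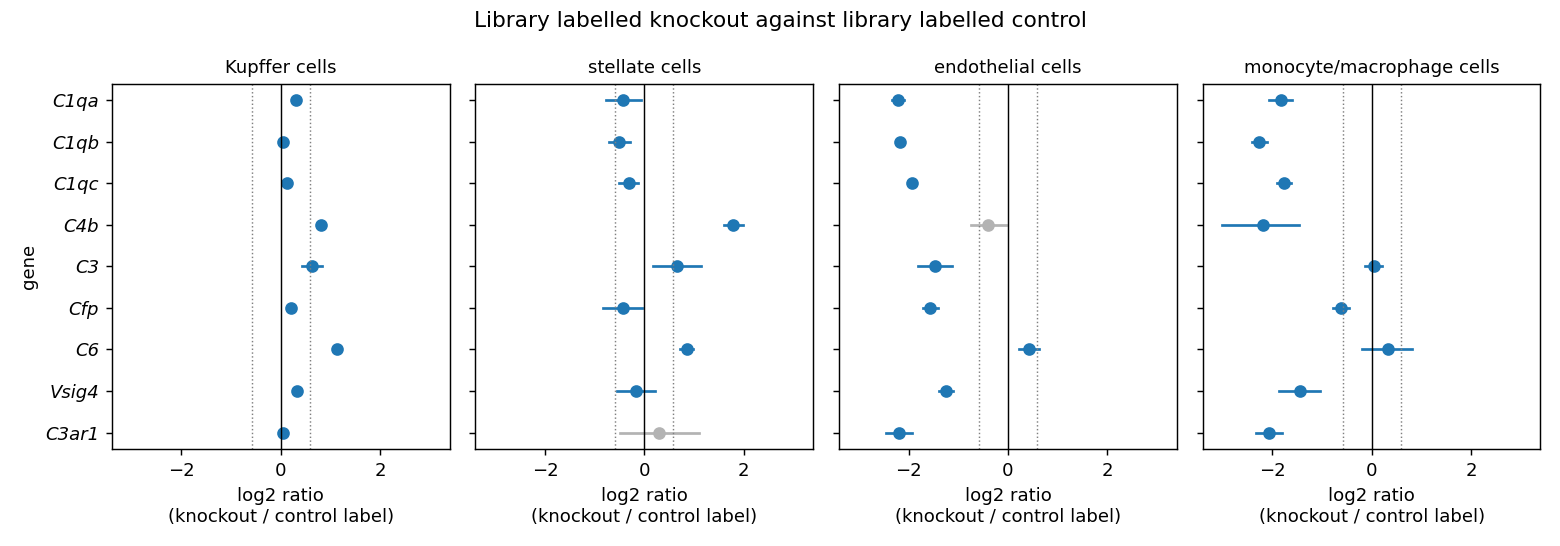
Log2 ratio of each member, knockout over control library (x axis), in 4 gated types, with lines for exact 95% counting intervals and dotted lines at 1.5-fold. Grey points are members below the minimum level in that type. C6 and C4b lie to the right in Kupffer and stellate cells, and most members lie to the left in endothelial and monocyte/macrophage cells.

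In stellate cells 3 of 8 measured members were higher in the knockout library, against 8.85% of 9229 genes, and 0 were lower, against 9.98%. C4b was at 67.3 CPM in 443 control and 233 CPM in 489 knockout cells (3.46-fold, log2 ratio 1.79 [1.60 to 1.98]). C6 was at 177 and 321 CPM (0.85 [0.73 to 0.98]). C3 was at 13.9 and 22.0 CPM (0.66 [0.18 to 1.15]), with 58.2% of its knockout counts in 5 cells. The contractile markers, 8 genes of which Cnn1 was at 0 in the knockout library, summed to 3383 and 1157 CPM in the same gate, and the cycling genes to 242 and 5.16 CPM. In stellate cells without a count of the contractile genes Acta2, Tagln or Myh11, 70 and 89 cells, the C4b levels were 186 and 283 CPM (log2 ratio 0.60, interval 0.21 to 1.003), and C6 at 267 and 292 CPM, 0.13 [-0.22 to 0.48]. In hepatocytes C4b was at 126 and 258 CPM (1.03 [0.72 to 1.33]) and C6 at 217 and 366 CPM (0.76 [0.51 to 1.001]), while C3 had a log2 ratio of 0.31. Here 3 of 8 members were higher, against 11.2% of measured genes, C4b, C6 and Vsig4, the last on 31 and 20 counts with a log2 interval of -0.02 to 1.72. C1qa and Cfp, 2 of 8, were lower, against 44.0%, both with intervals that spanned 0. Only 46 hepatocytes were gated in the knockout library. The 5 highest cells for each gene held 80.3% of the C4b, 70.4% of the C6 and 67.2% of the C3 counts there. In control hepatocytes the 5 highest held 53.5%, 40.9% and 27.5%. Scaling by trimmed means shifted all log2 ratios of this type by 0.37.

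In endothelial cells 7 of 8 measured members were lower in the knockout library, against 12.7% of 9162 genes, and 0 were higher, against 5.21%. C1qb was at 306 CPM in 1781 control cells and 67.6 CPM in 3486 knockout cells (log2 ratio -2.18 [-2.25 to -2.10]). C1qa was at 113 and 24.3 CPM, C1qc at 330 and 86.6, Cfp at 60.6 and 20.6, Vsig4 at 69.2 and 29.2, C3ar1 at 26.8 and 5.88, and C3 at 12.1 and 4.36. C6 alone differed by less than 1.5-fold, at 19.4 and 26.1 CPM. For the 7 measured members other than C3 these levels were between 1.84% (C6) and 8.18% (C3ar1) of the Kupffer level in the control library. In the knockout library they were between 0.94% (Vsig4) and 1.73% (C3ar1). The Kupffer markers compared, which the gate held down here, stood at a median of 1.45% and 0.76% of their own level and reached 2.61% and 0.95%. In the control library all of these members but C6 were above the highest marker, and in the knockout library all but Vsig4. B cells, taken as background, had C1qa at 102 and 13.3 CPM, C1qb at 351 and 66.5, and C1qc at 345 and 65.6. Cfp was there at 86.5 and 25.7 CPM, Vsig4 at 151 and 40.9, C3ar1 at 46.8 and 0.95, and C6 at 18.7 and 30.4. A lower level in the knockout library was thus not particular to endothelial cells. T cells had C1qb at 56.6 and 53.5 CPM. The 8 monocyte/macrophage markers, all detected, summed to 249 and 70.3 CPM in the endothelial gate, and the 8 Kupffer markers, all detected, to 590 and 516 CPM. In endothelial cells without a count of any Kupffer marker, 271 and 308 cells, C1qa was at 18.6 and 18.5 CPM, C1qb at 55.9 and 43.8, and C1qc at 73.4 and 62.3, and 1 of the members, C3, was lower. In those cells Vsig4 turned to a log2 ratio of 1.19 [0.50 to 1.92]. Taking cells without Kupffer marker counts also takes cells with less Kupffer RNA, so their C1q levels are partly fixed by the choice.

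In monocyte/macrophage cells 7 of 9 members were lower in the knockout library, against 14.2% of 9003 genes, and 0 were higher, against 18.5%. C1qb was at 747 CPM in 787 control and 156 CPM in 208 knockout cells, and 61.7% of the knockout counts lay in 5 cells. C3ar1 was at 194 and 46.4 CPM, with 85.5% of the knockout counts in 5 cells and a count in 12 of 208 cells, and Cfp at 247 and 161. C3 was at 147 and 151 CPM. The 2 gates also differed in other features. The granulocyte precursor genes Mpo, Elane, Prtn3 and Ctsg, all detected, summed to 234 and 3168 CPM. The cycling genes summed to 234 and 2324 CPM, and median depth was 5777 and 11712 counts. Whether the lower members go with these features was not tested. In cells without a count of these precursor genes, 641 and 88 cells, C1qb was at 873 and 437 CPM (log2 ratio -0.999 [-1.16 to -0.84]), C3ar1 had a log2 ratio of -0.57, and C6 one of 1.09. In neutrophils, 30 and 161 cells, C3 was at 194 CPM [134 to 271] and 388 CPM [352 to 428]. Here 2 of 8 members were higher, against 18.6% of genes, C3 and Vsig4, the latter on 3 control counts with a log2 interval of -0.87 to 3.15. Lower were 4 of 8, against 22.5% of genes: C1qa (404 and 40.05 CPM), C1qb (945 and 89.4), C1qc (968 and 124) and C3ar1 (142 and 14.9). In the 30 control neutrophils the 5 highest cells held 93.4% of the C1qb counts. Scaling by trimmed means shifted log2 ratios of this type by 0.31.

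The other complement genes were read from a list of 48 by role. In Kupffer cells 24 were measured, of which 3 were higher and 5 lower in the knockout library, against 4.57% and 7.5% of all measured genes. Those higher included Cd55, which speeds the decay of the enzymes that cleave C3 (98.1 and 232 CPM), and Fcna, a ficolin that starts the lectin pathway (1283 and 2133 CPM). Lower were the collectin Colec12 (160 and 46.6 CPM), the regulator Clu (15.4 and 6.76 CPM), Cd93 (65.0 and 5.64 CPM), the integrin chain Itgax of complement receptor 4 (46.2 and 5.98 CPM) and C1qbp (48.9 and 24.98 CPM). In stellate cells 9 of 23 were higher and 1 lower, against 8.85% and 9.98% of all genes. They included Fcna (350 and 1417 CPM), the collectins Colec10 (2186 and 3947 CPM) and Colec11 (2410 and 3953 CPM), the protease C1ra (288 and 488 CPM) and Vtn (14.2 and 71.5 CPM). In endothelial cells, where 5.21% of all genes were higher and 12.7% lower, 4 of 22 were higher, among them the protease C1ra (24.8 and 44.9 CPM) and the C5a receptor C5ar2 (83.8 and 165 CPM), and 8 were lower, among them C5ar1 (20.04 and 5.02 CPM) and Itgb2 (35.2 and 12.1 CPM). In monocyte/macrophage cells 3 of 18 were higher, a share near the 18.5% of all genes, and 12 lower, against 14.2%, with C5ar1 at 160 and 20.6 CPM and Fcnb, a ficolin of myeloid precursors, at 8.42 and 52.1 CPM.

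The genes most like each member were sought over 20 profiles, the 10 types with at least 30 cells in both libraries, among 8311 genes, by Pearson correlation of log2(CPM + 1). The profiles of 1 library share its depth and its free RNA, so these are descriptions. The C1q chains were most like each other, with r between 0.990 and 0.996. Vsig4 was followed by Cd5l, Gfra2 and Clec4f (0.973, 0.945 and 0.942), of which Cd5l and Clec4f were gate markers. C4b and C6 were each among the 3 nearest of the other (0.865). C3 was followed by Hp, Mgst1 and F5 (0.949, 0.922 and 0.914), Cfp by Wfdc17, Slc11a1 and Cd300ld (0.976, 0.957 and 0.949), C6 by Thrb ahead of C4b (0.886), and C3ar1 by Csf1r, Slc7a8 and Slc11a1 (0.967, 0.957 and 0.955).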

How the data were processed

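Deposited by the authors were raw counts, whole numbers for each gene in each barcode, of 2 BD Rhapsody whole transcriptome libraries, not normalized, with gene symbols and barcode numbers and no coordinates. Per the submitters' processing notes the reads were set against GRCm39. No source used here gives the aligner, the counter or the collapse of molecular identifiers, so counting intervals may be too narrow. Barcodes were kept (7917 and 8799) from 300 genes and 500 counts upwards, unless over 25% of their counts were mitochondrial. Scrublet's automatic threshold marked 1 cell in each library, so it did not work, and the top 5% of its scores were removed instead. A cell joined a type where at least 50% of the type's markers had a count, with a lead of 30 percentage points over other lineages; these thresholds were set after the marker genes had been looked at. Types with at least 30 cells are printed. A gene was measured in a type from 20 counts summed over the libraries and 10 CPM in 1 library. Members, marker and gene lists were chosen with earlier results of these data known. The named genes are the members in every printed type. Of the listed complement genes, those named are, per role, the 4 of largest log2 ratio past 1.5-fold, or else the 2 of highest CPM, of which the text gives a part (1 listed gene is counted but not reported by name here), and the 3 genes most like each member. Poisson, conditional binomial and Clopper-Pearson intervals were used. On Poisson counts simulated for 8361 genes of Kupffer cells, the conditional binomial intervals covered 95.1% of the true ratios. This checks the calculation only, since the simulated counts followed the model of the interval and held no spread between cells or animals. No sample was left out, and no test was run. Python 3.11.15, scanpy 1.11.5 and scipy 1.17.1 were used.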

Additional observations from a re-analysis of the deposited data

How the results depend on the processing

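No paired analysis was possible because each genotype has 1 library. Over up to 15 alternatives, C6 kept its direction in Kupffer cells in 15 of 15 (log2 ratio 0.76 to 1.34) and C4b in 15 of 15 (0.61 to 1.42); in stellate cells C4b ranged from 0.60 to 2.08 and C6 from 0.13 to 1.73. In Kupffer cells without a Timd4 count, 1 member was lower in place of 0, C3 at a log2 ratio of -0.73 [-2.09 to 0.39], and 4 of 9 members kept their direction, Cfp going to -0.32 [-0.49 to -0.16] and C1qb to -0.12 [-0.19 to -0.04]. In endothelial cells the number higher, 0 as reported, was 1 with the stricter gate, 2 with cells of 2 lineages kept and 1 in cells without a Kupffer marker count, and the number lower, 7 as reported, was 3 with cells of 2 lineages kept and 1 in cells without a Kupffer marker count. There Cfp turned to 0.24 and Vsig4 to 1.19, and Vsig4 was at 0.064 with cells of 2 lineages kept. In monocyte/macrophage cells the number higher, 0 as reported, was 1 with Leiden clusters, with the mean of per-cell CPM and in cells without a precursor count, and the number lower, 7 as reported, was 3 with Leiden clusters. In stellate cells the number higher, 3 as reported, was 8 with cells of 2 lineages kept and 1 with Leiden clusters, where C3 turned to -0.26; the number lower, 0 as reported, was 1 with the stricter gate, 6 with the looser gate, 4 with called doublets kept, 5 with Leiden clusters and 1 with cells thinned. The cause of these moves was not tested. The subsets by scar, cycling, contractile, precursor and Kupffer marker genes were chosen after seeing the data. Each took cells by the absence of counts, which also depends on depth, and their depth is not given here. A shift of a ratio in them can therefore be partly built in. Trimmed-mean scaling shifted endothelial log2 ratios by 0.15 and Kupffer ones by 0.05. T cells had C1qb at 56.6 and 53.5 CPM, C1qc at 73.9 and 68.6, Vsig4 at 35.6 and 54.2 and C6 at 18.2 and 32.9. B cells had C1qb at 351 and 66.5 CPM, C1qc at 345 and 65.6, Vsig4 at 151 and 40.9 and C6 at 18.7 and 30.4. Levels of the order of either type could not be told from free RNA in other types.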

Other observations

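Other genes of the cascade also had counts in hepatocytes that escaped depletion. Of the listed terminal pathway genes, 5 were measured there and all 5 were at least 1.5-fold higher in the knockout library, against 11.2% of 8031 measured genes; they are named after their values were seen. Hc, which encodes C5, was at 290 CPM in 207 control and 570 CPM in 46 knockout cells, C8a at 245 and 606, C8b at 182 and 401, C8g at 64.1 and 309, and C9 at 553 and 846. Of the classical pathway genes 4 of 4 measured were higher, C1ra (62.9 and 154 CPM), C1s1 (130 and 304), C2 (50.1 and 96.9) and C1rl (51.8 and 131). Other roles were mixed: of 6 fluid-phase regulators 4 were higher and 0 lower, of 8 lectin pathway genes 1 was higher and 3 lower, of 4 receptors 2 were higher and 2 lower, and of 2 membrane regulators 0 were either. Over the whole list 16 of 29 measured genes were higher and 5 lower, the latter against 44.0% of all genes. The median log2 ratio of all genes in this type was -0.48, and the 5 highest knockout cells held 74.4% of the Hc counts, so these values rest on few cells. C7 was at 0 counts in hepatocytes of both libraries. Hepatocytes were not the highest type for every gene named here. C1ra was at 288 and 488 CPM in stellate cells, and C2 at 100 and 122 CPM in Kupffer cells.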
